A study of Mus musculus with 3 samples.

Results

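The 10 genes described here mark cells that turn toward cartilage or bone: Sox9, Runx2, Sp7, Comp, Acan, Bglap, Ibsp, Spp1, Alpl and Mgp. They were found by name among the non-control probes of a whole mouse genome Agilent array, under their current symbols or the older names Agc1, Bglap1 and Akp2. The 10 genes had 15 probes on 42 spots, of 27597 gene labels, 41174 probes and 43379 non-control spots in all. Cy3-labelled total RNA of 3 mouse samples was hybridised, to 1 array per sample. They were mouse embryonic fibroblasts (MEF) labelled p53-null, a sample of embryonic stem (ES) cells, and MEF given as p53 wild type in the design text. The labels give a Nanog-GFP reporter for all 3 samples. The strain, age, p53 allele, passage, number of embryos and ES cell line are not given in the sources used here. The study concerned the part of p53 in making induced pluripotent stem cells, and its design set p53-null MEF against MEF and ES cells against MEF. Both comparisons share the single MEF array, so a feature of that array appears in both.

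Cartilage is laid down by chondrocytes, whose identity depends on the transcription factor Sox9, and bone by osteoblasts, which require Runx2 and, downstream of it, Sp7. Chondrocytes secrete a matrix of collagens, the proteoglycan aggrecan and the glycoprotein Comp. Osteoblasts secrete a collagen scaffold with osteocalcin, bone sialoprotein and osteopontin, alkaline phosphatase makes phosphate available for its mineral, and matrix Gla protein restrains mineral where none should form. MEF are a mixed preparation of mesenchymal cells from whole embryos and can hold cells that have begun these programmes. ES cells express alkaline phosphatase as a pluripotency marker.

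Signals are given in units of the scanner software's processed intensity, and ± is that software's error-model SD for 1 signal, a technical error only. The spot signals had a 75th percentile of 1040 units in p53-null MEF, 834 in ES cells and 829 in MEF, and 26198 to 27954 spots per array were well above background. Log2 differences compare signals after each array was divided by its own 75th percentile. With 1 array per group there was no test and no spread between samples, so every value describes these arrays, and the number of arrays limits the precision. Where 1 of 2 arrays was not well above background, the difference is a bound, written "at least". The arrays of ES cells and MEF shared a slide, while that of p53-null MEF was on a different one and scanned apart, so slide and group cannot be told apart in that comparison. The brighter Trp53 probe read 56.3 ± 6.67 units in p53-null MEF, 4902 ± 490 in ES cells and 1304 ± 130 in MEF, so that p53-null MEF were 29.1-fold below MEF. A second Trp53 probe read 260 ± 26.4 units in p53-null MEF, 304 ± 30.5 in ES cells and 572 ± 57.3 in MEF. It put p53-null MEF 2.76-fold below MEF, and put ES cells below MEF as well, unlike the first probe. Whether either probe lies in a deleted stretch is not known from the labels. The 4 probes of Xist, an RNA of the inactive X chromosome, read 123 to 7437 units in p53-null MEF and were not well above background on the other arrays.

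The identity of the cells was read from marker genes, with levels as a percent of each array's 75th percentile. All 13 fibroblast markers were well above background in p53-null MEF and in MEF, with summed levels of 64271.5% and 85480.3%, and 12 of 13 were in ES cells, with 5584.89%. All 11 ES cell markers on the array were well above background in ES cells, with a summed level of 74581% against 112% in MEF. Of these 11 markers, 3 were well above background in p53-null MEF and 6 in MEF. Neither fibroblast array had Pou5f1, Nanog, Zfp42, Esrrb or Dppa4 well above background. In bulk RNA of this kind, fewer cells of a type and less RNA per cell cannot be told apart.

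The probes whose sequences matter most for reading the values are shown here, in the direction of the transcript. The Sox9 probe spans an intron on mm8 (chr11:112599086-112599938, + strand) and is shown because it was dim where the other Sox9 probes were bright. The Comp probe (chr8:73310782-73310915, + strand) is shown because, among the 10 genes, it gave the largest difference between the fibroblast arrays. The Bglap probe (chr3:88469562-88469621, - strand) and that of its neighbouring copy Bglap3 (chr3:88454728-88454787, - strand) are shown because the osteocalcin genes are near-identical. The capitals mark the 15 bases that the ends of both probes share, with 1 mismatch, G7A, counted from 1 at the 5′ end of the Bglap probe and written with the Bglap base first.
Sox9: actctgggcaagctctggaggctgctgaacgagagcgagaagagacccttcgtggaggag
Comp: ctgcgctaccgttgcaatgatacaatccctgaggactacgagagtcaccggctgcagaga
Bglap: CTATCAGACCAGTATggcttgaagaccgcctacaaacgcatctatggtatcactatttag
Bglap3: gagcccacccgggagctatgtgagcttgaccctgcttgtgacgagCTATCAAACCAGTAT

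**Figure D1:**
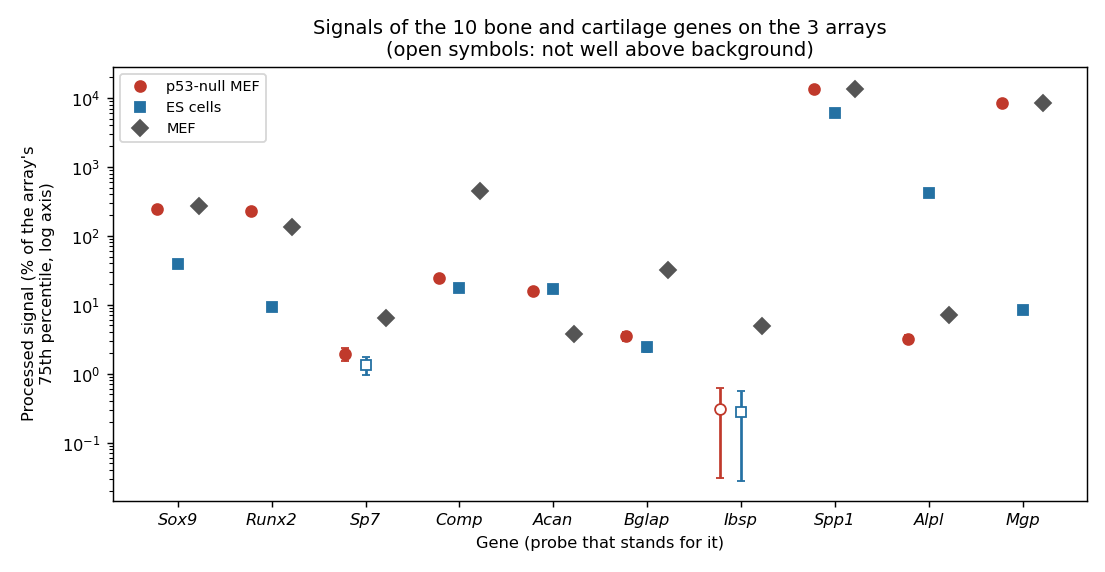
Processed signal of the 10 genes on each array, as a percent of the array's 75th percentile on a log axis, with 1 point per array and bars for the error-model SD (lower bars are shortened where they would reach 0). Mgp is at 8441% in p53-null MEF, 8.31% in ES cells and 8423% in MEF, while Alpl is at 3.22% in p53-null MEF, 412% in ES cells and 7.17% in MEF.

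Among those of the 10 genes measured on both arrays, p53-null MEF differed most from MEF in the matrix genes Comp and Bglap, both lower. Ibsp gave only a bound. Mgp, Spp1, and Sox9 and Runx2 by their brightest probes, lay within 2-fold. Of the 10 genes, in p53-null MEF 5 were lower by 2-fold or more (Sp7, Comp, Bglap, Alpl and Ibsp), 1 was at least 2-fold higher (Acan) and 4 differed less. Of 17398 genes with a value, 16.6% were at least 2-fold lower and 18.6% at least 2-fold higher. The median log2 difference (p53-null MEF minus MEF) was -0.65 over the 10 genes and 0.03 over all genes. At 5-fold, 2 genes were lower (Comp and Bglap) and none was higher, where 3.05% and 3.35% of all genes passed. Scaling on 7 spike-in control probes in place of the 75th percentile raised the median of all genes to 2.29, and then Comp alone was 2-fold lower, 6 of the 10 were 2-fold higher, and 98.6% of all 2-fold calls were higher in p53-null MEF, against 52.8% as reported and 71.1% with no scaling. These scalings move every measured gene of a comparison by the same amount. Normexp background correction, which adds an offset of 50 units and so narrows differences of dim probes, left 2 of the 10 lower, Comp and Bglap.

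Set against MEF, ES cells had lower signals for 8 of the 10 genes by at least 2-fold and higher signals for Acan and Alpl. Of 18745 genes with a value, 27.1% were at least 2-fold lower and 32.7% at least 2-fold higher in ES cells. The median log2 difference (ES cells minus MEF) was -2.54 over the 10 genes and 0.20 over all genes. At 5-fold, Sox9, Runx2, Comp, Bglap and Mgp were lower and Alpl was higher, where 13.0% of all genes were lower and 13.1% higher.

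**Figure D2:**
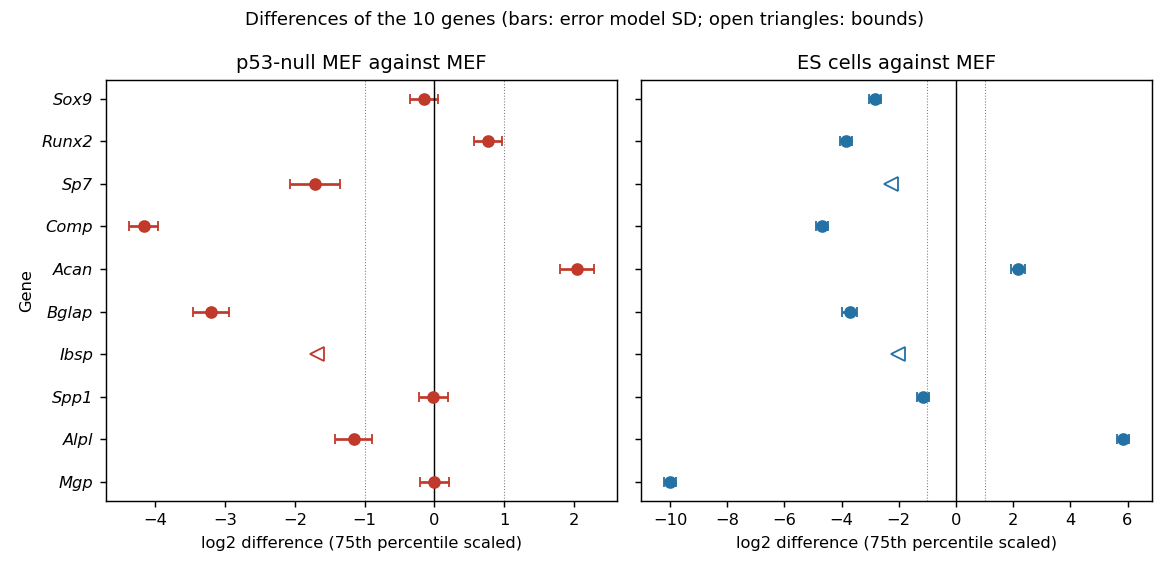
Log2 difference of the 10 genes for p53-null MEF minus MEF and for ES cells minus MEF, with bars for the error-model SD of the difference and open triangles for bounds. Comp and Bglap lie lowest among measured genes in the first comparison and Mgp in the second. Of the genes at least 2-fold different in p53-null MEF, Sp7 and Alpl turned sign under spike-in scaling.

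Among the regulators, Sox9, the transcription factor that specifies chondrocytes, was measured by 3 probes. The probe that stood for it (chr11:112601784-112601843 on mm8) read 2575 ± 258 units in p53-null MEF, 324 ± 32.4 in ES cells and 2272 ± 227 in MEF. Both fibroblast arrays were high and the ES cell array was low. The log2 difference was -0.15 ± 0.20 for p53-null MEF, within its technical error, and -2.82 ± 0.20 for ES cells, which is 7.07-fold lower. Under spike-in scaling the p53-null MEF difference was 2.12. A second Sox9 probe, printed at 10 spots, read 776 units in p53-null MEF (spot SD 28.3), 115 in ES cells (spot SD 3.96) and 861 in MEF (spot SD 50.6). Its log2 differences were -0.48 ± 0.20 and -2.91 ± 0.21. The intron-spanning probe was well above background in MEF alone, at 43.8 ± 5.19 units, and read 15.3 units in p53-null MEF and 2.39 in ES cells. This probe gave p53-null MEF at least 3.43-fold and ES cells at least 4.36-fold lower, so the 3 probes gave one direction for ES cells and differed in size for p53-null MEF.

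Runx2, the transcription factor that osteoblasts require, was measured by 4 probes on the - strand of chromosome 17. The probe that stood for it (chr17:44067120-44067179) was printed at 10 spots and read 2363 units in p53-null MEF (spot SD 43.2, n = 9 spots), 78.0 in ES cells (2.26, n = 9 spots) and 1106 in MEF (33.3, n = 10 spots). These spots repeat 1 sample per array, and their unscaled signals did not overlap between the 3 arrays. By this probe, Runx2 was highest in p53-null MEF, by 1.70-fold over MEF with a log2 difference of 0.77 ± 0.20. ES cells were 14.3-fold lower than MEF. Under spike-in scaling the difference between the fibroblast arrays was 3.03. The neighbouring probe read 1295 ± 130 units in p53-null MEF, 44.3 ± 5.20 in ES cells and 680 ± 68.1 in MEF, with log2 differences of 0.60 ± 0.20 and -3.95 ± 0.22. Another probe, nearer the 5′ end, read 32.3 ± 5.04 units in p53-null MEF, 2.95 in ES cells, where it was not well above background, and 31.8 ± 4.39 in MEF. The difference of this probe between the fibroblast arrays, -0.30 ± 0.30, had the other sign and lay within its error. The probe nearest the 5′ end (chr17:44277234-44277293) was well above background in p53-null MEF alone, at 21.9 ± 3.95 units against 12.5 in MEF.

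**Figure D3:**
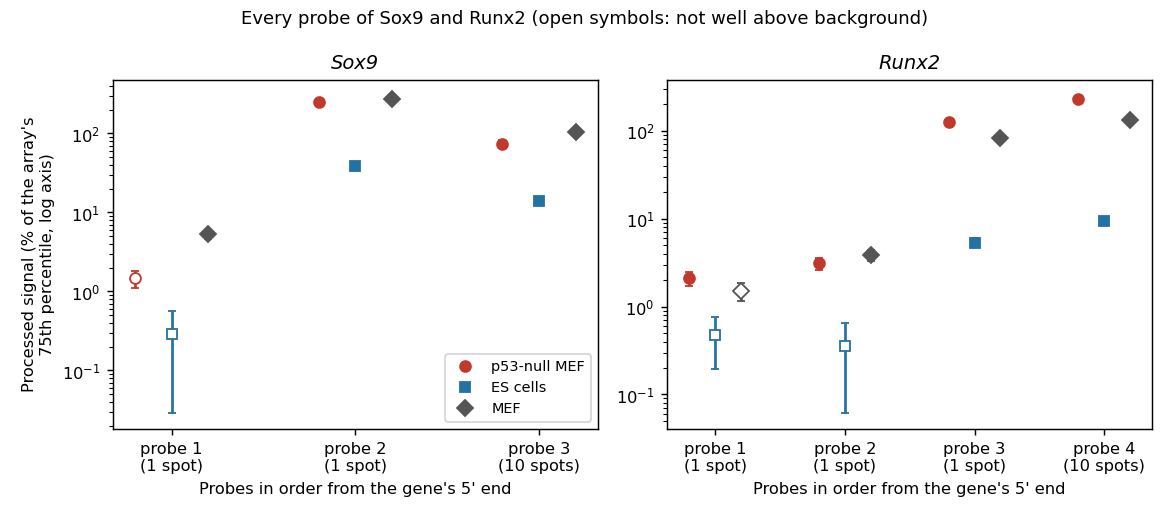
Signals of the 3 Sox9 and the 4 Runx2 probes on each array, as a percent of the array's 75th percentile on a log axis, ordered from the 5′ end of the gene, with bars for the error-model SD (lower bars are shortened where they would reach 0) and open symbols where a probe was not well above background. In ES cells each probe that was well above background in MEF lies below its MEF signal, and levels of different probes are not comparable.

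Sp7, or osterix, acts downstream of Runx2 in osteoblasts and was dim on all arrays. Its probe (chr15:102185295-102185354, - strand) read 20.3 ± 4.37 units in p53-null MEF, 11.1 ± 3.16 in ES cells and 53 ± 6.35 in MEF, and was not well above background in ES cells. MEF had the highest signal. Sp7 was 3.28-fold lower in p53-null MEF, with a log2 difference of -1.71 ± 0.36, which became 0.55 under spike-in scaling and -0.64 with normexp correction. In ES cells it was 4.80-fold lower than in MEF by the probe's own signal, which is not a strict minimum because that signal exceeded the lowest one well above background.

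Of the cartilage matrix genes, Comp and Acan differed between the fibroblast arrays in opposite directions. Comp, a glycoprotein of cartilage and tendon matrix, read 256 ± 25.8 units in p53-null MEF, 144 ± 14.6 in ES cells and 3666 ± 367 in MEF. MEF stood far above both others, and p53-null MEF above ES cells. Comp was 18.0-fold lower in p53-null MEF, at a log2 difference of -4.17 ± 0.20, and 25.6-fold lower in ES cells, at -4.68 ± 0.21. It was the only one of the 10 that stayed lower in p53-null MEF by 2-fold or more under every setting tried, spike-in scaling included, where the difference was -1.91.

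Acan encodes aggrecan, the large proteoglycan that binds water in cartilage. Its probe (chr7:78988368-78988428, + strand) read 163 ± 16.7 units in p53-null MEF, 143 ± 14.5 in ES cells and 31.3 ± 4.14 in MEF. MEF were the low array here, and the other 2 were close, at 15.7% and 17.1% of their 75th percentiles. Acan was 4.15-fold higher in p53-null MEF, at 2.05 ± 0.24, and 4.53-fold higher in ES cells, at 2.18 ± 0.24. With normexp correction these differences were 1.02 and 1.11, and under spike-in scaling they were 4.32 and 2.48.

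Of the bone matrix genes, Bglap encodes osteocalcin, a small protein secreted by mature osteoblasts. Its probe read 36.0 ± 5.44 units in p53-null MEF, 20.3 ± 3.11 in ES cells and 264 ± 26.5 in MEF. MEF were the high array and the other 2 were near background. Against MEF, Bglap was 9.18-fold lower in p53-null cells, at -3.20 ± 0.26, and 13.1-fold lower in ES cells, at -3.71 ± 0.26. With normexp correction the differences were -2.03 and -1.93. Under spike-in scaling they were -0.93, inside 2-fold, and -3.41. The probe of Bglap3, whose shared bases are shown above, read 47.1 ± 5.85 units in p53-null MEF, 31.9 ± 3.95 in ES cells and 181 ± 18.3 in MEF. Its differences from MEF were -2.27 ± 0.23 and -2.52 ± 0.23, the same direction as for Bglap. The remaining osteocalcin gene, Bglap2, had no probe of its own here, and signal from near-identical copies cannot be separated.

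Ibsp encodes bone sialoprotein, which nucleates mineral in bone matrix. Its probe (chr5:104551214-104551273, + strand) read 3.22 units in p53-null MEF, 2.30 in ES cells and 41.0 ± 4.81 in MEF, and was well above background in MEF alone. Against MEF, Ibsp was at least 3.22-fold lower in p53-null cells and at least 4.09-fold lower in ES cells. Under spike-in scaling the floor of the dim array lay above the MEF signal, so no direction could be given for p53-null MEF.

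Spp1 encodes osteopontin, an acidic phosphoprotein of bone that many other cells also secrete, and its probe lies 129798 bases from that of Ibsp on mm8. Printed at 10 spots (chr5:104681071-104681130, + strand), it read 138248 units in p53-null MEF (spot SD 5101), 50592 in ES cells (spot SD 1481) and 111047 in MEF (spot SD 5206), over 9 kept spots on each array. All 3 arrays were bright, ES cells least so. The log2 difference was -0.01 ± 0.20 for p53-null MEF, unlike the bound for its neighbour Ibsp, and -1.14 ± 0.20 for ES cells, which is 2.21-fold lower. Under spike-in scaling the p53-null MEF difference was 2.25, and the ES cell difference was -0.84, inside 2-fold.

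Alpl, the tissue-nonspecific alkaline phosphatase, is used by mineralizing cells and is also high in ES cells. Its probe (chr4:137013819-137013878, - strand) read 33.5 ± 4.85 units in p53-null MEF, 3435 ± 344 in ES cells and 59.4 ± 6.50 in MEF. ES cells stood alone and both fibroblast arrays were dim. Alpl was 57.5-fold higher in ES cells than in MEF, at 5.84 ± 0.21. In p53-null MEF it was 2.23-fold lower, at -1.16 ± 0.26, which was 1.11 under spike-in scaling and -0.65 with normexp correction.

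Mgp encodes matrix Gla protein, an inhibitor of calcification made by chondrocytes, vascular cells and fibroblasts. Its probe (chr6:136836800-136836859, - strand) read 87779 ± 8778 units in p53-null MEF, 69.3 ± 7.30 in ES cells and 69801 ± 6980 in MEF. The fibroblast arrays did not differ after scaling, at 0.00 ± 0.20, while ES cells were 1014-fold lower, at -9.99 ± 0.21. This was the largest difference of the 10 genes in either comparison. All 13 fibroblast markers were lower in ES cells as well, with a median of -6.14, and the part of fibroblast content in the Mgp difference was not tested.

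Markers of cells that accompany or resorb bone were read beside these genes. The osteoclast markers had summed levels of 340% of the 75th percentile in p53-null MEF, 64.3% in ES cells and 868% in MEF. Of 11 osteoclast markers, 7 were well above background on each fibroblast array, and Calcr, Mmp9, Atp6v0d2 and Dcstamp were not on either. Of the 7 with a value, 3 were lower in p53-null MEF by 2-fold or more, 1 was higher and 3 were within 2-fold. Ctsk, a collagen-degrading protease, was 10.1-fold lower in p53-null MEF, at -3.34 ± 0.20, and Itgb3, an integrin subunit chosen after its values were seen, was 3.24-fold higher, at 1.69 ± 0.20, with 0.22 by its other probe. The macrophage markers had summed levels of 61.7% in p53-null MEF, 154% in ES cells and 324% in MEF, and 4, 6 and 8 of 13 were well above background. Their medians were 0.84%, 1.38% and 4.05%, and Lyz2 was the brightest in MEF, at 1980 units. Of the 9 macrophage markers with a value between the fibroblast arrays, 5 were lower in p53-null MEF, 1 was higher and 3 were within 2-fold. Lyz2 was 19.7-fold lower in p53-null MEF, though its other probe gave -0.51, and Cd53 and Trem2 were at least 6.27-fold and 5.88-fold lower. Ptprc, the single higher one, was at least 2.41-fold higher. Of 13 fibroblast markers, 5 were lower in p53-null MEF and 8 were within 2-fold. Among them, p53-null MEF had 5.76-fold less Dcn and 5.35-fold less Fn1, whose probes ranged from -2.74 to 1.41. Over all genes, 16.6% were lower and 18.6% higher. The part of these markers in the differences of the 10 genes was not tested.

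Wider lists place the 10 genes among other skeletal genes. The shares over all genes between the fibroblast arrays were 16.6% lower and 18.6% higher. Of 22 cartilage matrix genes, 17 had a value between the fibroblast arrays, and 9 were lower in p53-null MEF by 2-fold or more, 2 higher and 6 within 2-fold, with a median of -1.11 that became 1.15 under spike-in scaling. Prg4, the lubricant proteoglycan of joint surfaces, read 49.2 units in p53-null MEF and 17016 in MEF, a log2 difference of -8.76 ± 0.22. Fmod, a proteoglycan that organises collagen fibrils, was 15.3-fold lower at -3.94 ± 0.21. Col10a1, the collagen of hypertrophic cartilage, was 13.1-fold lower at -3.71 ± 0.23, and Matn4, a matrilin, was 9.73-fold lower at -3.28 ± 0.28. Col2a1, the main cartilage collagen, chosen after its values were seen, read 2072 units in p53-null MEF and 5994 in MEF, at -1.86 ± 0.20.

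The other lists are given beside the same shares of all genes, 16.6% lower and 18.6% higher. Of 22 bone matrix and mineralization genes on the array, 17 had a value, 4 were lower in p53-null MEF, 13 were within 2-fold and none was higher, with a median of -0.56. No gene of that list reached 5-fold. The 20 measured transcription regulators included Sox5, Sox6, Dlx5, Msx1, Msx2, Runx1 and Runx3, while Dlx3 and Dlx6 had no value. The 20 had 5 lower, 2 higher and 13 within 2-fold, with a median of 0.10 and none at 5-fold. Of 19 measured signals and receptors, 7 were lower, 2 higher and 10 within 2-fold, with a median of -0.27. Vdr, the vitamin D receptor, was 5.97-fold lower in p53-null MEF at -2.58 ± 0.21. Under spike-in scaling the medians of these 3 lists were 1.70, 2.37 and 1.99, beside 2.29 over all genes.

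In ES cells the median of each list was negative, beside 0.20 over all genes, of which 27.1% were lower and 32.7% higher by 2-fold or more. Of 18 cartilage matrix genes with a value, 8 of them bounds, 12 were lower and 5 higher, with a median of -2.76. Prg4 was at least 1696-fold and Fmod at least 217-fold lower. Matn2, a matrilin, was 173-fold lower and Col11a1, a fibril collagen of cartilage, was 76.8-fold lower, with Col11a1 probes from -6.26 to -3.70. Cilp2 was 20.5-fold higher and Ucma, a secreted protein of upper-zone cartilage, at least 6.69-fold higher. Of 17 bone matrix genes with a value, 2 of them bounds, 11 were lower and 2 higher, with a median of -2.46. Ogn, a small proteoglycan, was 125-fold lower and Enpp1, which makes the mineral inhibitor pyrophosphate, 81.6-fold lower. The type I collagen genes Col1a2 and Col1a1 were 79.1-fold and 65.0-fold lower, though the other Col1a2 probe gave -1.57. Ahsg, a circulating inhibitor of calcification made mainly by liver, was at least 35.3-fold higher.

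There were 20 transcription regulators with a value in ES cells, 5 of them bounds. Of these 20, 15 were lower and none was higher, with a median of -2.99, where 27.1% and 32.7% of all genes passed. Zfp521 was 107-fold lower, Scx, the tendon factor scleraxis, 69.9-fold, Foxc1 63.1-fold and Sox6, a partner of Sox9 in cartilage, 33.7-fold lower. The Sox6 probes with a value ranged from -5.08 to -2.71. Of 19 signals and receptors with a value, 5 of them bounds, 13 were lower and 2 higher, with a median of -2.38. Tnfrsf11b, the decoy receptor osteoprotegerin, was at least 199-fold lower and Bmp2, a bone-inducing ligand, at least 14.3-fold lower. Grem1, a BMP antagonist, was 12.5-fold lower and Bmp6 11.6-fold lower, though the other Bmp6 probe gave -1.92.

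**Figure D4:**
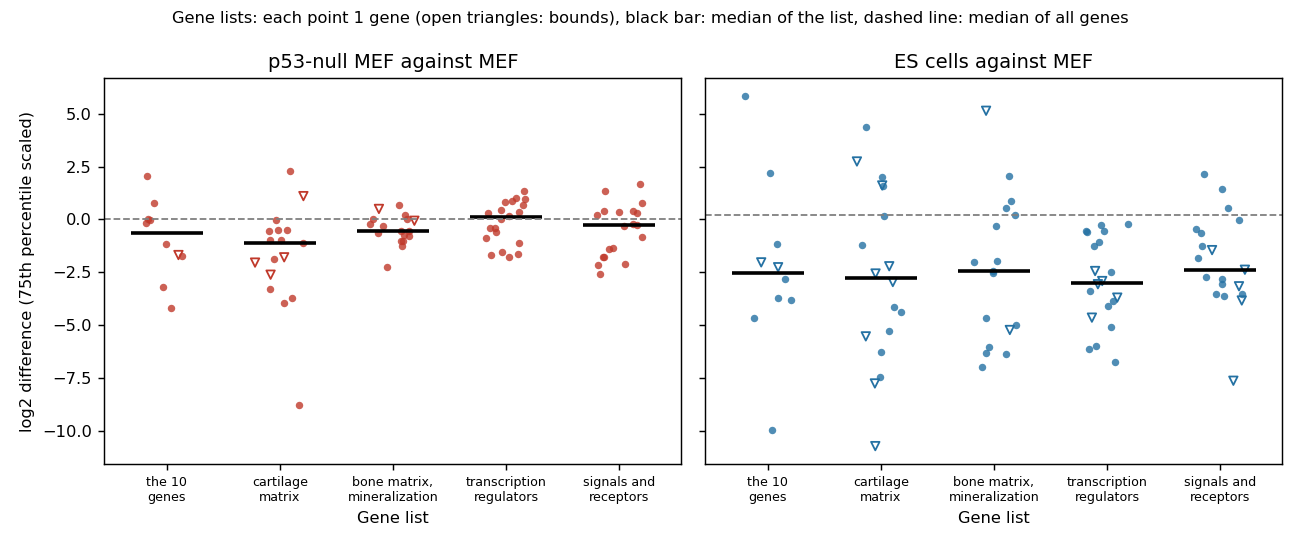
Log2 differences of the 10 genes and of the 4 lists, 1 point per gene, in p53-null MEF minus MEF and in ES cells minus MEF, with a black bar at each list's median, a dashed line at the median of all genes and open triangles for bounds. In the first panel the cartilage matrix median of -1.11 is the lowest and it turned to 1.15 under spike-in scaling, and in the second all 5 medians lie between -2.99 and -2.38.

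Promoter windows of 300 bases, 250 before and 50 after the start, were read for the 6 genes that the RefSeq table of GRCm38.p6 held: Runx2, Acan, Bglap, Alpl, Spp1 and Ibsp, with 8 windows in all. Sox9, Sp7, Comp and Mgp were not read. The motifs searched on both strands were the Runx core ACCACA, the GC box GGGCGG and the TATA box TATAAA, and overlapping matches were each counted. The Runx core was in windows of Runx2, Bglap and Spp1, and in 16.8% of 32851 windows of all genes. The TATA box was in windows of Bglap, Alpl, Spp1 and Ibsp, against 13.6% of all windows, and the GC box in those of Acan and Alpl, against 35.7%. Alpl and Spp1 had 2 windows each and were named where either held a match, while the shares are of single windows. The TATA match of Alpl lay 192 bases before the start of its second window, on the other strand. The sequences before the start of the 3 secreted bone matrix genes are shown, with matches on either strand in capitals, because p53-null MEF had less Bglap and Ibsp than MEF but not less Spp1. They lie at chr3:88384467-88384716 (- strand) for Bglap, chr5:104299037-104299286 (+ strand) for Ibsp and chr5:104434861-104435110 (+ strand) for the first of the 2 Spp1 windows.
Bglap: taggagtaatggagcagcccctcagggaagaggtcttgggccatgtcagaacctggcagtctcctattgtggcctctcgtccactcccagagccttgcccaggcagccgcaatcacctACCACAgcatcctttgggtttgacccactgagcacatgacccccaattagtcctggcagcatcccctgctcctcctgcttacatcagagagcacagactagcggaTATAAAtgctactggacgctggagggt
Ibsp: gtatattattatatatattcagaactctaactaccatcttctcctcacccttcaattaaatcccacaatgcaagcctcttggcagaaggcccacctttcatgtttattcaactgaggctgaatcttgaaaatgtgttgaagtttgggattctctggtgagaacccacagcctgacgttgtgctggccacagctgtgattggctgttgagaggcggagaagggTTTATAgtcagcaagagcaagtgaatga
Spp1: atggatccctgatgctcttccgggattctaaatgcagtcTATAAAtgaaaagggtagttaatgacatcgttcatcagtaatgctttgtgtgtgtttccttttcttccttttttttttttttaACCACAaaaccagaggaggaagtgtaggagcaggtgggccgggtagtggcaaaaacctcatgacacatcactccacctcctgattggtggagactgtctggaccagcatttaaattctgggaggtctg

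The Bglap window held a Runx core 132 bases and a TATA box 27 bases before the start. The Ibsp window held a TATA box on the other strand 28 bases before the start and none of the other motifs. The Spp1 window held a Runx core 128 bases and a TATA box 211 bases before the start, and the second Spp1 window held none of the 3 motifs. The Runx core of the Bglap window and the first Spp1 window is a short motif, found in 16.8% of all windows. The part of Runx2 in the differences of these genes was not tested. These matches describe letters in a window, and no binding was measured.

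**Figure D5:**
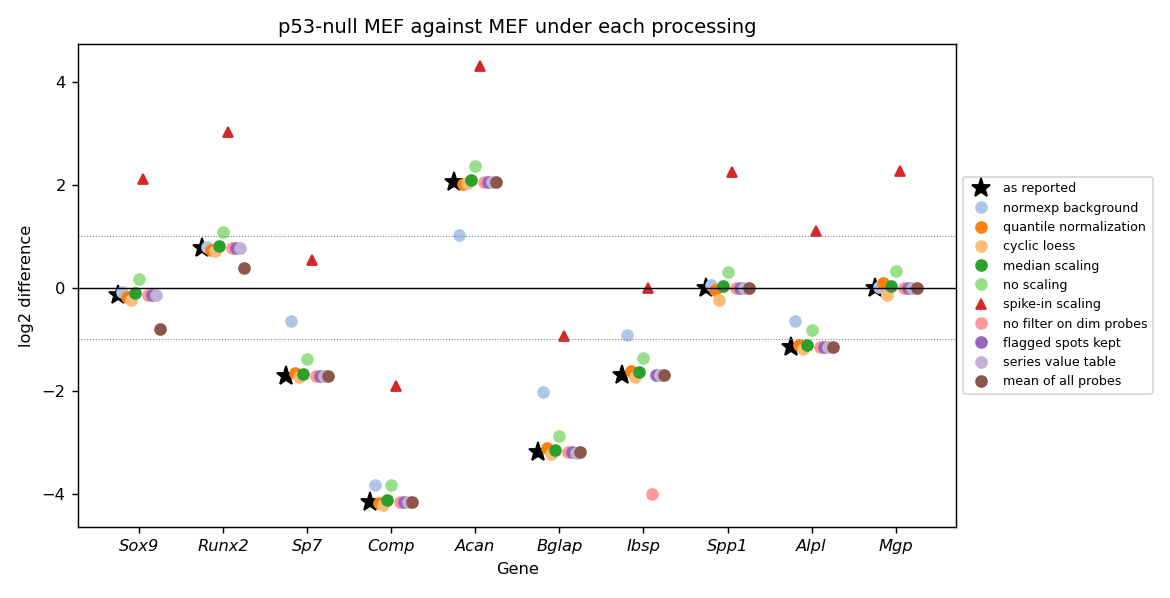
Log2 difference of each of the 10 genes in p53-null MEF minus MEF under each processing, with stars for the values as reported, triangles for spike-in scaling and circles for the others. Comp is below -1 and Acan above 1 under every setting. Of the genes at least 2-fold different as reported, Sp7 and Alpl turn sign, under spike-in scaling alone.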

How the data were processed

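Per the file headers, the authors read each array with Feature Extraction 9.5.3.1 from Agilent, and they deposited spot intensities on a linear scale, corrected for background and for trends across the array. The deposited series table repeated these intensities, with ratios to the scanner files between 0.995 and 1.005, so neither a log scale nor a centring, and 1 signal per array has no direction. Its column medians were 51.8 (p53-null MEF), 50.0 (ES cells) and 43.2 (MEF). Here the log2 processed signal minus each array's 75th percentile was used. Left out were 1639 control spots and 62, 176 and 192 spots that the software marked as outliers on the p53-null MEF, ES cell and MEF arrays. Spots of a probe were averaged, and the brightest probe stood for a gene. A probe was called well above background where 50% or more of its spots carried that mark. A bound set the bright signal against the higher of the dim signal and the lowest signal well above background. Names came from the RefSeq table of GRCm38.p6 (24375 probes by accession, 6301 by symbol, 2426 by synonym, 8072 keeping the file's name). Probe positions are those of the p53-null MEF file, on mm8, and exons and untranslated regions were not determined.

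The 10 genes and all lists were chosen with earlier results of these data known. Named from each list were genes at least 5-fold different, up to 4 per direction, and defining markers. Bglap2 and Fgf4 had no probe here, and the Gdf6 probe was marked on an array. Limma 3.58.1 in R 4.3.3 gave the alternative normalizations, Python 3.11.15 the rest. The scaling and difference steps were tested on simulated data with changes placed in bright spots only. That test does not cover the differences of dim probes.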

Additional observations from a re-analysis of the deposited data

How the results depend on the processing

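The values, medians and counts of the 10 genes and of the 4 skeletal lists were recomputed under 10 alternatives, and the counts of the 10 genes also at 5-fold. Marker lists and promoter matches were not. No paired analysis was possible because each group had 1 array. For p53-null MEF against MEF, the median of the 10 genes was -0.36 with normexp correction, -0.32 with no scaling, 1.61 with spike-in scaling and -0.98 with the mean of all probes of a gene. The count at least 2-fold lower was 2 with normexp correction, 1 with spike-in scaling and 2 at 5-fold, and the count higher was 2 with no scaling, 6 with spike-in scaling and 0 at 5-fold. Of reported values at least 1 in size, spike-in scaling turned the signs of Sp7 (0.55), Alpl (1.11) and the cartilage matrix median (1.15). Smaller negative values also turned positive. They were the median of the 10, Sox9 (2.12), Spp1 (2.25), the bone matrix median (1.70) and the signals and receptors median (1.99). The 7 spike-in control probes differed by -1.94 on the unscaled log2 scale between p53-null MEF and MEF and by -0.29 between ES cells and MEF. The cause was not tested. The mean of all probes gave -0.80 for Sox9 and 0.39 for Runx2. For ES cells against MEF, the median of the 10 was -1.55 with normexp correction, -2.80 with cyclic loess, -2.76 with median scaling, -2.24 with spike-in scaling and -3.27 with no filter on dim probes, and at 5-fold 5 genes were lower and 1 higher. Quantile normalization, kept outlier spots and the deposited value table moved no median or count of the 10 beyond the spread or the 1.5-fold limit in either comparison. Normexp correction took Sp7 and Ibsp below 2-fold in both comparisons, to -0.64 and -0.92 in p53-null MEF and to -0.58 and -0.76 in ES cells. Signal over background limits what can be read for Sp7, Ibsp, for Bglap and Alpl in p53-null MEF, and for Acan in MEF.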
